A study of Homo sapiens with 12 samples.

Results

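Hepatocyte metabolic enzymes and bile acid genes were followed in 2 human hepatoma cell lines after an siRNA against ARD1. The 34 genes were named by symbol for their roles, with earlier results of these data known but no measured value in the rule, from amino acid breakdown (11 genes), the urea cycle (5), glucose output and glycogen (5), alcohol, aldehyde and glyoxylate oxidation (4), bile acid synthesis and transport (7) and drug and steroid metabolism (2). They were found by gene identifier among 28704 genes listed across the count tables of both lines. RNA-seq counts were made from 12 libraries in 4 groups of 3. The groups were Huh-7 cells given siARD1, Huh-7 cells given a negative-control siRNA, cells labelled Hep-3B given siARD1 and cells labelled Hep-3B given the negative-control siRNA. Both names are those of established hepatoma lines, and by the labels each group is 1 line in culture. ARD1 is another name of NAA10, the catalytic subunit of an enzyme that acetylates the amino termini of new proteins. The series is about ARD1, glutathione and escape from ferroptosis in liver cancer cells, and the metabolic genes described here are a separate readout of the same libraries.

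Hepatocytes take apart amino acids from the gut, turn their nitrogen into urea and their carbon into glucose, and send glucose into the blood. They make bile acids from cholesterol, join them to glycine or taurine and pump them into bile. Many of these enzymes mark the mature hepatocyte, are switched on late in liver development, and are often reduced in hepatoma lines.

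Total counts per library ran from 17327615 to 25960237. NAA10 averaged 11 ± 1.87 CPM (counts scaled to library size; SD, n = 3) in siARD1 Huh-7 cells and 174 ± 23.4 CPM in control Huh-7 cells, a log2 fold change of -3.98 (edgeR adjusted p = 1.66e-08). In the libraries labelled Hep-3B, NAA10 averaged 13.6 ± 2.47 CPM after siARD1 and 55.3 ± 5.94 CPM in controls, a log2 fold change of -2.01 (edgeR adjusted p = 1.36e-07). The hepatocyte label was checked against 13 markers. In Huh-7 their summed level was 27254 to 31672 CPM after siARD1 and 35182 to 36740 CPM in controls. In the libraries labelled Hep-3B it was 288 to 323 CPM after siARD1 and 487 to 583 CPM in controls. The albumin gene ALB, which Hep-3B is known to express, stood there at 0.564 to 1.09 CPM after siARD1 and 3.998 to 6.20 CPM in controls, while HNF4A, a hepatocyte transcription factor gene, stood at 43.4 to 48.6 CPM and 42.6 to 47.3 CPM. These libraries therefore go against their label and are named by it only. Nothing in the labels tells if the 3 libraries of a group came from separate cultures, so each p-value below measures the spread between these libraries. In bulk RNA a smaller number of expressing cells and less RNA per cell cannot be told apart.

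Many of the 34 genes were at or near 0 in the libraries labelled Hep-3B. In Huh-7, 27 genes had enough counts for the test, 6 were under the filter on low counts and HAO1 was not analysed. Among the libraries labelled Hep-3B, 15 were tested, 14 were under the filter and OTC, G6PC1, GYS2, ADH4 and CYP7A1 were not analysed.

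**Figure D1:**
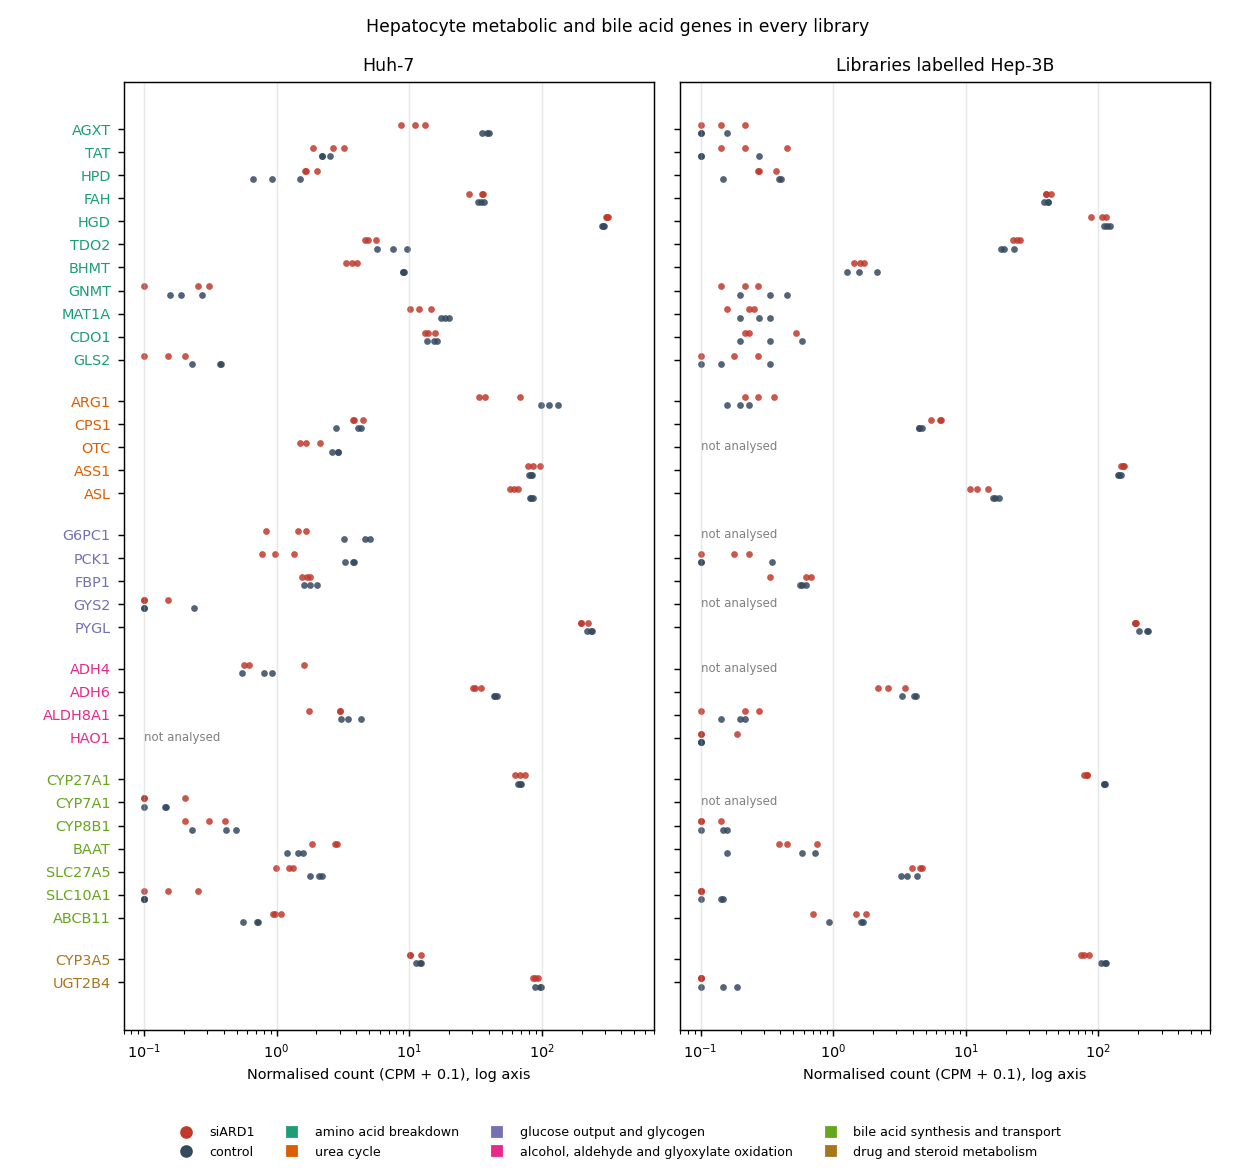
Normalised counts (CPM + 0.1, log axis) of the 34 genes in all 12 libraries, with Huh-7 on the left and the libraries labelled Hep-3B on the right; each dot is 1 library, coloured by siARD1 or control, and gene names are coloured by role. AGXT, ARG1 and UGT2B4 lie at 8.56 CPM or more in all Huh-7 libraries and at 0.260 CPM or less in all libraries labelled Hep-3B.

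The control libraries of both lines were set side by side to show what each line expresses before ARD1 is lowered. CPM was scaled within each line, and the test was a contrast of the control groups in 1 fit of all 12 libraries. AGXT, the peroxisomal aminotransferase that removes glyoxylate, averaged 38.0 ± 2.17 CPM in Huh-7 controls and had 1 count over the 3 controls labelled Hep-3B. ARG1, the arginase that releases urea, averaged 115 ± 17.2 CPM in Huh-7 controls and had 6 counts in total in the others. UGT2B4, a glucuronosyltransferase of bile acids and steroids, averaged 95.3 ± 4.98 CPM in Huh-7 controls against 3 counts in total. Whether such few counts are reads carried over between libraries was not tested. A residual level was measured on 28 genes outside the 34, picked as strong in Huh-7 and lower by 1000-fold or more in the other line. It was 0.0147 to 0.0165% of the Huh-7 level in siARD1 libraries labelled Hep-3B and 0.0410 to 0.0574% in their controls. Low expression of the 28 genes was not separated from carry-over. At that residual rate 0.682 of the 1 AGXT count, 2.25 of the 6 ARG1 counts and 2.58 of the 3 UGT2B4 counts in controls would be of this kind. Among the 15 genes tested in that line the share at that rate was at most 0.467% (ADH6 in controls).

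Of 24 genes tested for a difference between the control groups, 23 differed, against 80.7% of the 17122 genes tested (edgeR quasi-likelihood test). Here and below, a gene is called changed, risen or fallen where its p, adjusted over all genes tested by the method of Benjamini and Hochberg, is under 0.05. Higher in Huh-7 were 15. Of these 15, AGXT, TAT, HPD, MAT1A, CDO1, ARG1, PCK1, ALDH8A1 and UGT2B4 were under the filter on low counts in the libraries labelled Hep-3B. They entered the joint fit only through their Huh-7 counts, so their direction was nearly fixed beforehand. The counts of 23 and 15 are therefore no evidence about these genes as a set. The 8 lower in Huh-7 came from several pathways. CYP3A5, a drug-oxidising cytochrome P450, had the largest of these differences, with 11.8 ± 0.59 CPM in Huh-7 controls and 110 ± 5.15 CPM in controls labelled Hep-3B (log2 difference -3.39, SE 0.09). TDO2, which opens the tryptophan ring as the first step of the kynurenine route, averaged 7.53 ± 2.01 CPM in Huh-7 controls and 20.3 ± 2.57 CPM in the others (-1.58, SE 0.14). The bile acid genes CYP27A1 (-0.86), SLC27A5 (-1.09) and ABCB11 (-1.37) were lower in Huh-7 too, as were the urea cycle genes ASS1 (-0.95) and CPS1 (-0.43) and the tyrosine enzyme gene FAH (-0.39). The CPS1 difference was lost without Huh-7 control 1 (log2 difference -0.22, adjusted p = 0.278) or control 3 (adjusted p = 0.0513), and without control 1, 2 or 3 or siARD1 replicate 2 or 3 labelled Hep-3B (adjusted p = 0.0506 to 0.0821). PYGL, liver glycogen phosphorylase, was the 1 gene not called (-0.12, adjusted p = 0.0763), and it passed without control 1 labelled Hep-3B (-0.18, adjusted p = 0.00823). Per kilobase of exon, HGD had the highest level among the 34 genes in Huh-7 controls (97.7 CPM per kb), and in controls labelled Hep-3B the highest were ASS1 (47.0 CPM per kb) and PYGL (46.8 CPM per kb).

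**Figure D2:**
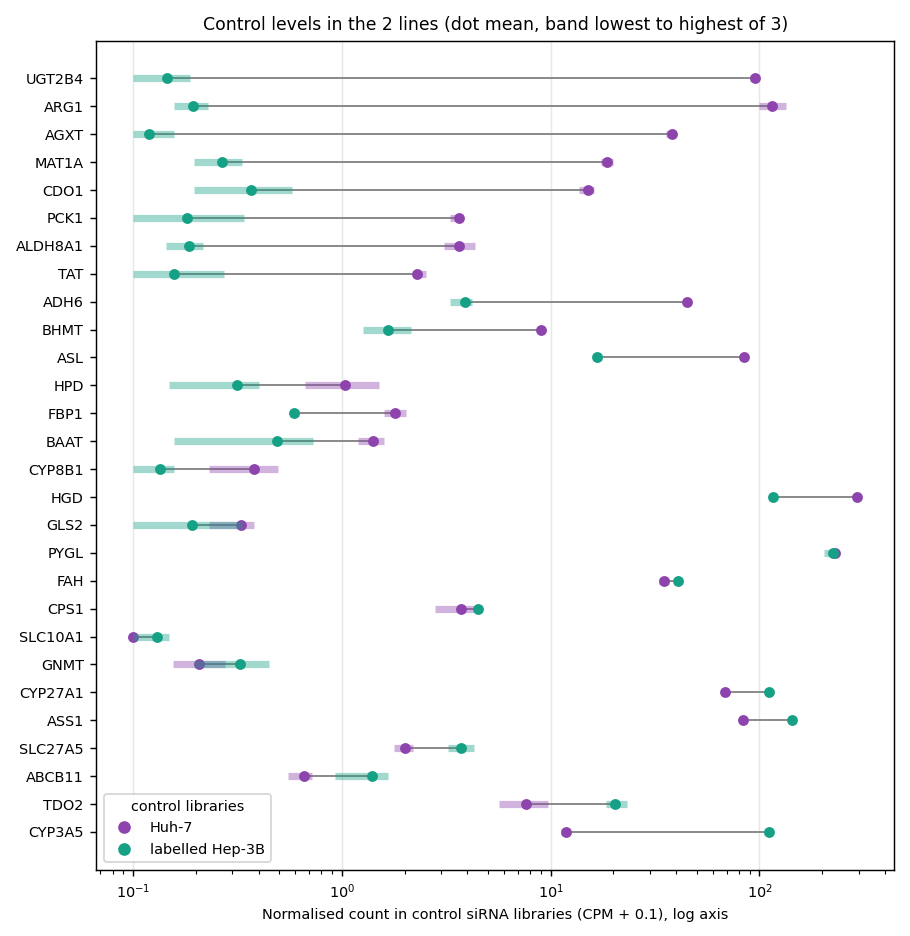
Mean CPM + 0.1 (log axis) in the control libraries of Huh-7 and of cells labelled Hep-3B for each gene analysed in both, sorted by the ratio between lines; dots are means and bands run from the lowest to the highest of 3 libraries. AGXT, UGT2B4 and ARG1 lie farthest apart towards Huh-7 and CYP3A5 farthest towards the cells labelled Hep-3B.

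After siARD1 in Huh-7, 2 of the 27 tested genes rose and 12 fell, with log2 fold changes given throughout as siARD1 minus control. Over all 15919 genes tested, 21.2% rose and 18.9% fell, so the share that fell (44.4%) was above the background and the share that rose (7.41%) was below it. The median log2 fold change of the 27 genes was -0.13, against -0.0076 over all genes tested. Upper-quartile scaling left 39.7% of all called genes on the higher side, against 52.9% here. The 3 siARD1 libraries lay wholly above the 3 controls for 4 genes and wholly below them for 12. The share of all genes tested whose groups lay apart was not computed, so these counts have no background. Hepatocyte markers moved in the same libraries, with 6 of 13 lower and 1 higher, and none of the 13 was at 0. Markers of bile duct cells summed to 322 to 332 CPM after siARD1 and 236 to 257 CPM in controls, with KRT19 and SPP1 higher, EPCAM lower and KRT7 not analysed. Fibroblast, endothelial and keratinocyte markers summed to at most 28.9, 13.2 and 8.37 CPM after siARD1, against at most 40.4, 14.4 and 8.18 CPM in controls. Among the markers of these 3 types that could be tested, 2 fibroblast genes fell and 0 rose. DCN was at 0 in controls and was not among those tested. Leukocyte markers reached 105 CPM after siARD1 and 88.0 CPM in controls, nearly all of it LYZ. The part of these marker changes in the metabolic genes was not tested.

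**Figure D3:**
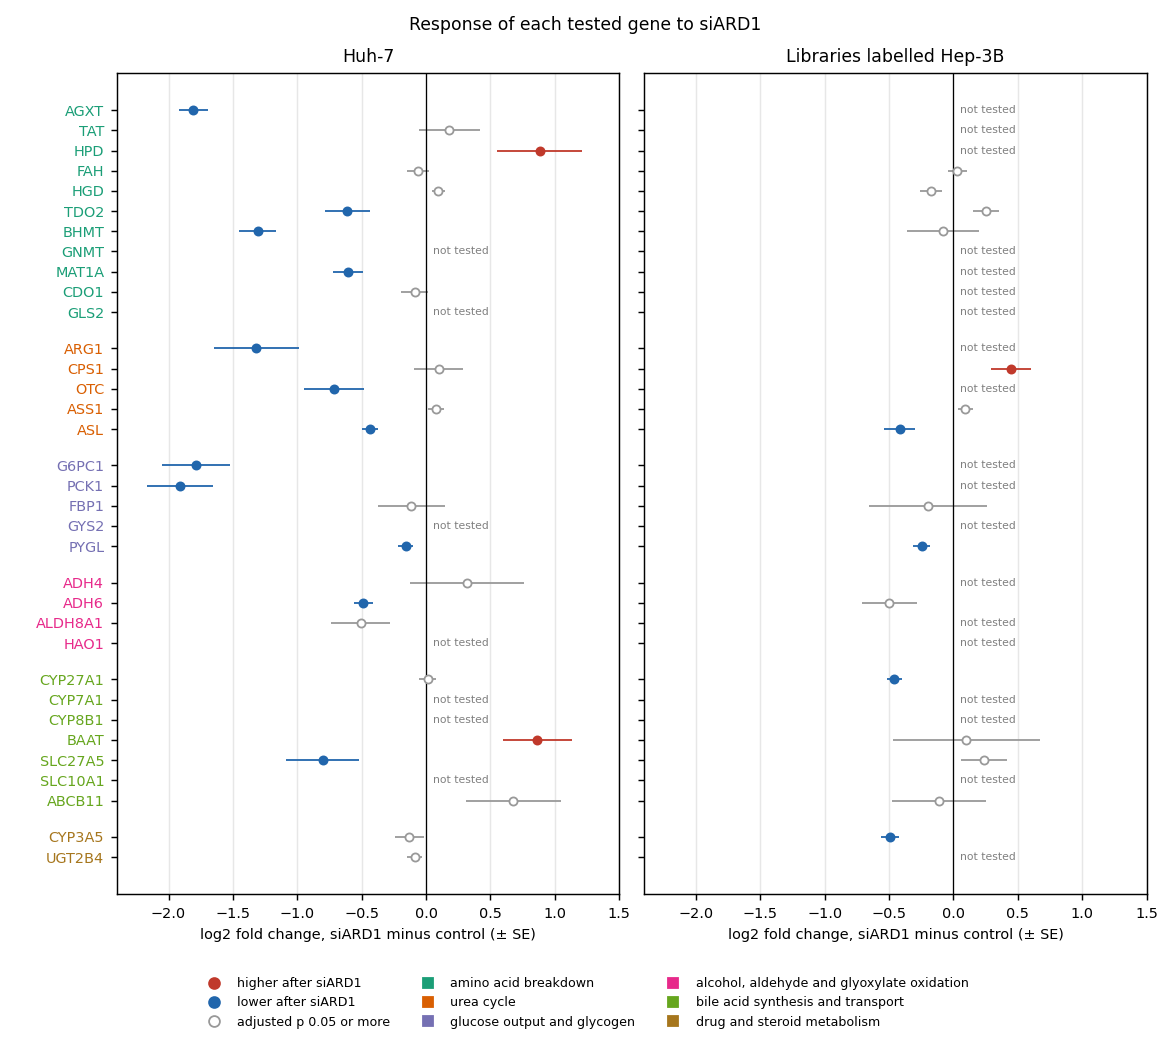
Log2 fold changes (siARD1 minus control, with SE) of each tested gene in Huh-7 (left) and in the libraries labelled Hep-3B (right); filled dots passed the test and open dots did not. The points farthest left are PCK1, AGXT and G6PC1 in Huh-7, with log2 fold changes of -1.91, -1.81 and -1.79.

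The deepest falls in Huh-7 were in 5 genes with a log2 fold change of -1 or beyond: AGXT, BHMT, ARG1, G6PC1 and PCK1. RefSeq (GRCh38.p14) gave a promoter, from 250 bases before to 50 bases after the annotated start, for 27 of the 34 genes. The 4 promoters found among these 5 genes are shown because the genes moved together. The regions are chr2:240868574-240868873 for AGXT, chr5:79111559-79111858 for BHMT, chr6:131572976-131573275 for ARG1 and chr17:42900549-42900848 for G6PC1, all on the plus strand. Capitals mark matches to the TATA box letters TATAAA or the HNF1 letters GTTAATNAT.
AGXT: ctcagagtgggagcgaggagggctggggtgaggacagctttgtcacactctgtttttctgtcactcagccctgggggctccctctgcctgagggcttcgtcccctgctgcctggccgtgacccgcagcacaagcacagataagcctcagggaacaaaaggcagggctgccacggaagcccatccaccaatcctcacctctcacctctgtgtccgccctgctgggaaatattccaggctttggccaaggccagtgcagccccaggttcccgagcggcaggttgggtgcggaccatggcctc
BHMT: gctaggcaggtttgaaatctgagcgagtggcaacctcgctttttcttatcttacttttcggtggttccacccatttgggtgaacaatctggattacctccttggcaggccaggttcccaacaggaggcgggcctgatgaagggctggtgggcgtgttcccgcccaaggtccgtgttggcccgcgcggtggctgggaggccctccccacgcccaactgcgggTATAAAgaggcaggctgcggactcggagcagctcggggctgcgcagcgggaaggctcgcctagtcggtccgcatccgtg
ARG1: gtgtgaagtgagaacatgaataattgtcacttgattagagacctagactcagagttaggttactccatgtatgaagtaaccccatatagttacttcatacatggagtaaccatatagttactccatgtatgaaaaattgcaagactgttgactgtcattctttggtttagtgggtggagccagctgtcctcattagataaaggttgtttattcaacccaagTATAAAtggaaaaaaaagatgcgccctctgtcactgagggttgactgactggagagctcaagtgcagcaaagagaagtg
G6PC1: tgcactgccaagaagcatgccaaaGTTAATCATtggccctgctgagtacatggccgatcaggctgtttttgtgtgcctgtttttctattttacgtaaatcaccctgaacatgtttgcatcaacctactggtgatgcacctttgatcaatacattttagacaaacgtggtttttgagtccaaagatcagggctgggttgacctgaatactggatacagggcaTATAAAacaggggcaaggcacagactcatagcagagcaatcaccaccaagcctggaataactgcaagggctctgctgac

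Both strands were searched for 5 sets of letters. TATAAA begins at -29 from the start in BHMT, ARG1 and G6PC1, and 11.5% of the 35116 promoters in the table hold it. Of 33 promoters found for the 34 genes, 7 hold it: those of ADH4, TDO2, BHMT, ARG1, BAAT, G6PC1 and OTC. In Huh-7 BAAT rose and ADH4 was not called, so the letters are not particular to genes that fell. The HNF1 letters, matched as GTTAATCAT at -226 in G6PC1, occur in 0.792% of promoters. The HNF4 letters CAAAGTNCA (1.10% of promoters), the C/EBP letters TTGCNNAA (10.5%) and the cyclic AMP response element TGACGTCA (1.85%) had no match in these 4 windows, nor had AGXT any match. None of the 5 sets of letters holds another.

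In amino acid breakdown, 4 of 9 tested genes fell and 1 rose in Huh-7. AGXT (ENSG00000172482, GRCh38 chromosome 2, 240868479 to 240880502) had counts of 214, 165 and 248 in siARD1 libraries and 684, 877 and 813 in controls. The groups stood far apart, and AGXT fell to 28.6% of its control level (log2 fold change -1.81, SE 0.11, edgeR adjusted p = 2.21e-10). BHMT, which rebuilds methionine from homocysteine with betaine, lies on chromosome 5 (79111779 to 79132290). It had counts of 63, 70 and 75 after siARD1 and 161, 194 and 203 in controls, and fell to 40.4% (-1.31, SE 0.15, adjusted p = 3.60e-07). The siARD1 libraries all lay far below the lowest control. BHMT shares 239 of its 3519 exon bases with DMGDH on the opposite strand, whose own log2 fold change was -0.18 (adjusted p = 0.0748). DMGDH averaged 37.9 CPM after siARD1 and 42.7 CPM in controls in Huh-7. In the libraries labelled Hep-3B it averaged 11.6 and 12.7 CPM. The part of DMGDH reads in the BHMT counts of either line was not tested. MAT1A makes the methyl donor S-adenosylmethionine in liver. It had 11.9, 10.02 and 14.5 CPM after siARD1 and 17.3, 19.8 and 18.4 CPM in controls, a log2 fold change of -0.61 (SE 0.12, adjusted p = 2.50e-04), with no overlap.

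TDO2 had 4.54, 4.77 and 5.55 CPM in siARD1 Huh-7 libraries and 5.58, 9.59 and 7.41 CPM in controls. The groups nearly touched, and the controls were spread widely (log2 fold change -0.61, SE 0.18, adjusted p = 0.00784). Without control 2, the highest control, the log2 fold change was -0.40 and the call was lost (adjusted p = 0.0989). HPD, the dioxygenase of the second step of tyrosine breakdown, was the gene that rose, with 1.55, 1.92 and 1.57 CPM after siARD1 and 1.41, 0.818 and 0.570 CPM in controls. That is 30, 37 and 30 counts against 25, 18 and 13 (log2 fold change 0.88, SE 0.33, adjusted p = 0.0363). The groups did not overlap, but control 1 lay close to the siARD1 libraries. HPD missed the threshold with control 2 left out (adjusted p = 0.105), and likewise control 3 (log2 fold change 0.62, adjusted p = 0.193), siARD1 replicate 1 (0.0597) or siARD1 replicate 2 (0.119).

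The rest of tyrosine breakdown was not called in Huh-7. TAT, the aminotransferase of its first step, had log2 fold change 0.18 (adjusted p = 0.573) on 34 to 60 counts after siARD1 and 43 to 48 in controls. HGD, which opens the ring of homogentisate, had 318, 306 and 310 CPM after siARD1 and 286, 296 and 292 CPM in controls (0.09, SE 0.05, adjusted p = 0.139). All 3 siARD1 libraries were above all controls. FAH, the last enzyme of the route, had 28.3, 35.2 and 36.2 CPM after siARD1 and 33.0, 36.8 and 34.5 CPM in controls (-0.06, adjusted p = 0.581). CDO1, which oxidises cysteine, had 15.5, 13.7 and 13.2 CPM after siARD1 and 13.6, 16.01 and 15.4 CPM in controls (-0.09, adjusted p = 0.526). Both FAH and CDO1 overlapped between the groups. GNMT, which spends S-adenosylmethionine on glycine, and GLS2, a liver glutaminase, were under the filter. GNMT had 7 counts in total after siARD1 and 7 in controls, and GLS2 had 3 and 14. Of 4141 exon bases of GLS2, 3193 are shared with SPRYD4 on the opposite strand.

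In the urea cycle, 3 of 5 tested genes fell and 0 rose in Huh-7. The 3 that fell, OTC, ASL and ARG1, act after the first step, as does ASS1, which was not called. ARG1 (chromosome 6, 131573144 to 131584332) had counts of 724, 642 and 1305 after siARD1 and 1758, 2932 and 2588 in controls. Every siARD1 replicate was below every control, and siARD1 replicate 3 held about as much ARG1 as the other 2 together. ARG1 averaged 46.3 ± 19.1 CPM after siARD1 and 115 ± 17.2 CPM in controls (log2 fold change -1.32, SE 0.33, adjusted p = 0.0389). Without siARD1 replicate 3 the log2 fold change was -1.71 (adjusted p = 1.14e-05). Without any other single library the call was lost: adjusted p was 0.0782, 0.116 and 0.110 without control 1, 2 or 3, and 0.119 and 0.0974 without siARD1 replicate 1 or 2.

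ASL, argininosuccinate lyase, had 57.9, 61.7 and 66.8 CPM after siARD1 and 83.4, 86.0 and 82.1 CPM in Huh-7 controls. It fell to 74.1% of control with no overlap (log2 fold change -0.43, SE 0.06, adjusted p = 8.94e-06). OTC, the X-linked enzyme that makes citrulline, had 39, 27 and 30 counts after siARD1 and 45, 62 and 64 in controls (-0.71, SE 0.23, adjusted p = 0.0178). Its groups did not overlap, and OTC missed the threshold with control 2 left out (adjusted p = 0.0548), or control 3 (0.0583) or siARD1 replicate 2 (0.0728). CPS1, the entry enzyme of the cycle, had 3.72, 3.68 and 4.40 CPM after siARD1 and 2.71, 4.23 and 3.99 CPM in controls (0.10, adjusted p = 0.718). ASS1, which makes argininosuccinate, had 97.1, 79.4 and 85.8 CPM after siARD1 and 83.0, 80.6 and 85.1 CPM in controls (0.08, adjusted p = 0.370). Groups overlapped in both. ASS1 has processed copies across the genome, so how its reads were shared out is uncertain.

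In glucose output, PCK1 and G6PC1 fell in Huh-7, from low levels. PCK1, which makes phosphoenolpyruvate (chromosome 20, 57561080 to 57568112), had 17, 13 and 24 counts after siARD1 and 66, 81 and 73 in controls. G6PC1, the phosphatase that frees glucose (chromosome 17, 42900797 to 42913369), had 26, 14 and 30 counts after siARD1 and 80, 110 and 71 in controls. In each gene the highest siARD1 replicate lay far below the lowest control. PCK1 fell to 26.6% of control (log2 fold change -1.91, SE 0.26, adjusted p = 4.06e-06) and G6PC1 to 29.01% (-1.79, SE 0.26, adjusted p = 1.39e-05). FBP1, between them in the pathway, was not called (-0.12, adjusted p = 0.752), with 28 to 32 counts after siARD1 and 30 to 44 in controls. FBP1 shares 283 of 1739 exon bases with PCAT7 on the opposite strand. In Huh-7 PCAT7 averaged 9.44 CPM after siARD1 and 12.8 CPM in controls (log2 fold change -0.44, edgeR adjusted p = 0.00308).

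In glycogen metabolism, PYGL had 199, 198 and 224 CPM after siARD1 and 220, 235 and 238 CPM in Huh-7 controls. The groups overlapped, and its fall was small (log2 fold change -0.16, SE 0.06, adjusted p = 0.0304). PYGL missed the threshold with any of these libraries left out: control 2 (adjusted p = 0.102), control 3 (0.151), siARD1 replicate 1 (0.135) or siARD1 replicate 2 (0.127). GYS2, liver glycogen synthase, had 1 count in total after siARD1 and 3 in controls and was not tested.

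**Figure D4:**
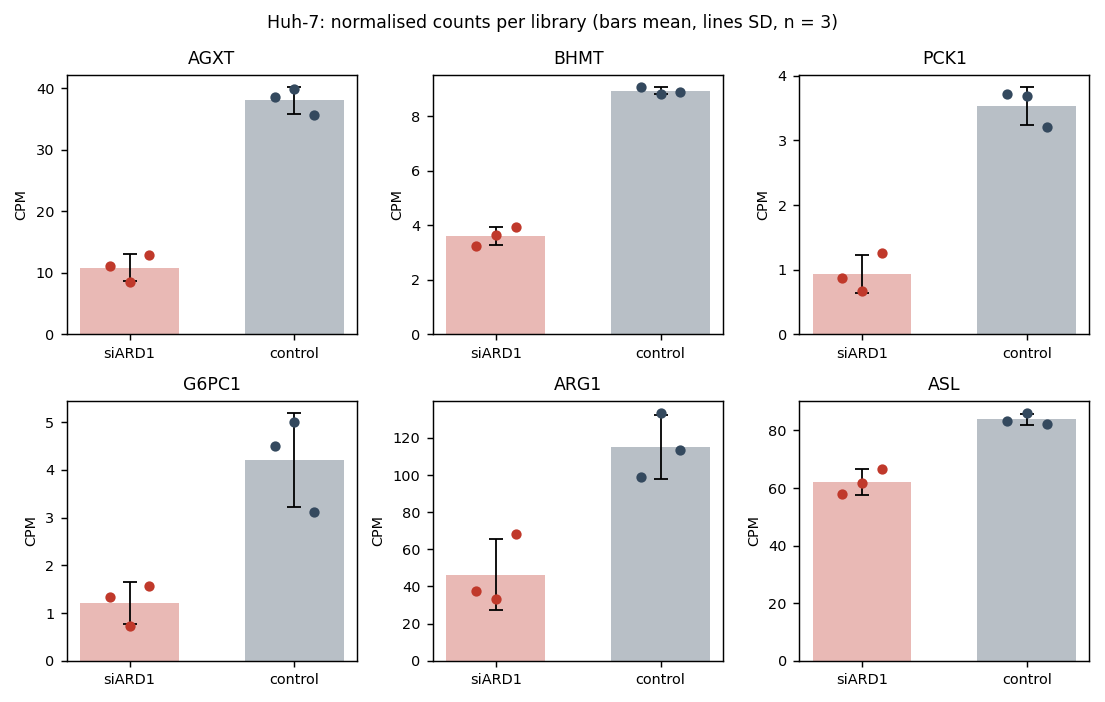
CPM per Huh-7 library for AGXT, BHMT, PCK1, G6PC1, ARG1 and ASL; bars are means, lines the SD of 3 libraries, dots single libraries, with siARD1 left of control. In each gene the 3 siARD1 libraries lie below the 3 controls, and 1 siARD1 replicate of ARG1 lies well above the other 2.

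Of the alcohol and aldehyde enzymes, ADH6, an alcohol dehydrogenase, had 31.3, 30.0 and 34.9 CPM after siARD1 and 43.8, 46.3 and 44.7 CPM in Huh-7 controls. The groups stood apart, and ADH6 fell to 71.3% of control (log2 fold change -0.49, SE 0.07, adjusted p = 1.69e-05). ALDH8A1, a dehydrogenase on the kynurenine route, had 32, 56 and 56 counts after siARD1 and 53, 93 and 77 in controls. Its normalised groups did not overlap, and it was not called (-0.51, SE 0.23, adjusted p = 0.0839). ADH4 was not called either (0.32, SE 0.44, adjusted p = 0.601), with counts of 9, 10 and 29 after siARD1 and 8, 18 and 16 in controls. Without siARD1 replicate 3 its log2 fold change was -0.43. ADH genes are a family of close relatives, so the division of reads among them is uncertain.

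Bile acid genes moved in both directions in Huh-7, and those of the first steps of synthesis from cholesterol were nearly silent or not called. CYP7A1, the rate-limiting enzyme of the classic route, had 2 counts in total after siARD1 and 2 in controls. CYP8B1, which steers synthesis to cholic acid, had 12 and 17. CYP27A1, the mitochondrial enzyme that starts the alternative route (chromosome 2, 218781749 to 218815293), had 74.9, 62.6 and 68.4 CPM after siARD1 and 69.0, 65.9 and 69.4 CPM in controls, with overlap (log2 fold change 0.01, SE 0.07, adjusted p = 0.900).

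The genes of bile acid conjugation went opposite ways in Huh-7. SLC27A5, which activates bile acids with coenzyme A, had 24, 17 and 22 counts after siARD1 and 37, 37 and 45 in controls. It fell with no overlap (log2 fold change -0.80, SE 0.28, adjusted p = 0.0265). BAAT, which then joins them to glycine or taurine, had 34, 53 and 51 counts after siARD1 and 24, 24 and 34 in controls. After scaling its groups were apart, and BAAT rose (0.86, SE 0.27, adjusted p = 0.0126). SLC27A5 missed the threshold with control 1 left out (adjusted p = 0.0738), or control 3 (0.0780) or siARD1 replicate 2 (0.0946), and BAAT did so for control 2 (0.0564) or siARD1 replicate 2 (0.0586). SLC27A5 shares 1131 of 8025 exon bases with ZNF446 on the opposite strand, which had a log2 fold change of 0.12 (adjusted p = 0.710).

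Of the transporters, ABCB11, the export pump into bile, had 17, 19 and 16 counts after siARD1 and 11, 10 and 14 in Huh-7 controls. All siARD1 libraries were above all controls, and the gene was not called (log2 fold change 0.68, SE 0.37, adjusted p = 0.151). SLC10A1, the uptake carrier, had 4 counts in total after siARD1 and 0 in controls. A count of 0 allows 0.131 to 0.169 CPM per control library (3 counts), so no difference was detectable at this depth. The drug and steroid enzymes were not called: CYP3A5 had 10.02, 12.2 and 10.05 CPM after siARD1 and 11.1, 11.96 and 12.2 CPM in controls (-0.13, adjusted p = 0.390). UGT2B4 had 88.8, 86.3 and 94.3 CPM after siARD1 and 89.6, 98.9 and 97.4 CPM in controls (-0.09, adjusted p = 0.244). With upper-quartile scaling UGT2B4 passed as lower (-0.15, adjusted p = 0.0391), and as a member of a family of close relatives its share of reads is uncertain.

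In the libraries labelled Hep-3B, 1 of the 15 tested genes rose after siARD1 and 4 fell. Over all 15762 genes tested, 16.8% rose and 15.3% fell, against 6.67% and 26.7% of the 15 genes. Their median log2 fold change was -0.11, against -0.01 over all genes tested. Upper-quartile scaling left 44.9% of all called genes on the higher side, against 52.3% here. Hepatocyte markers fell in 7 of the 10 tested and rose in 0, and TTR was at 0 in all siARD1 libraries. Of the 13 markers, 5 (ALB, AFP, APOA1, TTR and AHSG) are among the 28 genes whose residual level was lower after siARD1, so for these a fall and a lower carry-over cannot be told apart. Without them, 5 of 8 tested hepatocyte markers fell and 0 rose. Cholangiocyte markers summed to 212 to 255 CPM after siARD1 and 293 to 338 CPM in controls, with KRT7 and KRT19 higher and SPP1 lower. Among tested fibroblast, endothelial and keratinocyte markers, PDGFRB and KDR rose and PECAM1 and TP63 fell. Their sums reached 32.9, 76.2 and 9.72 CPM after siARD1 and 30.9, 65.9 and 16.2 CPM in controls. Leukocyte markers summed to at most 0.521 CPM after siARD1 and 0.754 CPM in controls, with CD3E and LYZ not analysed. The part of these markers in the results was not tested. Subtracting residual counts at the rate of those 28 genes left 1 gene higher and 4 lower. It took at most 0.467% from a tested gene (ADH6 in controls), so it could hardly have changed a call.

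CYP27A1 had 82.1, 81.9 and 77.6 CPM in siARD1 libraries labelled Hep-3B and 112, 111 and 109 CPM in their controls. It fell to 72.8% of control, with the groups far apart (log2 fold change -0.46, SE 0.06, adjusted p = 3.83e-05). CYP3A5 (chromosome 7, 99648194 to 99680026) had 77.7, 84.4 and 73.6 CPM after siARD1 and 112, 114 and 105 CPM in controls. It fell to 71.2% with no overlap (-0.49, SE 0.07, adjusted p = 6.14e-05). CYP3A5 has close relatives in its gene cluster, so the share of reads assigned to it is uncertain. PYGL had 188, 192 and 188 CPM after siARD1 and 203, 234 and 237 CPM in controls, and fell to 84.3% with no overlap (-0.25, SE 0.07, adjusted p = 0.00862).

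Of the urea cycle genes in the libraries labelled Hep-3B, ASL had 12.02, 14.6 and 10.7 CPM after siARD1 and 16.5, 17.6 and 15.9 CPM in controls. It fell with no overlap (log2 fold change -0.42, SE 0.12, adjusted p = 0.0151), which no longer passed with control 2 left out (adjusted p = 0.0608), or siARD1 replicate 1 (0.0557) or siARD1 replicate 3 (0.0872). CPS1 rose, with 6.38, 6.34 and 5.36 CPM after siARD1 and 4.35, 4.58 and 4.32 CPM in controls (0.45, SE 0.16, adjusted p = 0.0370). Its groups did not overlap, but the CPS1 call was lost without any 1 control (adjusted p = 0.0731, 0.0682 and 0.0909 without control 1, 2 or 3) and without siARD1 replicate 1 (0.13) or 2 (0.10). ASS1 had 155, 155 and 148 CPM after siARD1 and 140, 147 and 143 CPM in controls. Every siARD1 replicate was above every control, and ASS1 was not called (0.09, SE 0.06, adjusted p = 0.248).

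No gene of amino acid breakdown was called in the libraries labelled Hep-3B. HGD had 107, 114 and 88.4 CPM after siARD1 and 110, 121 and 116 CPM in controls (log2 fold change -0.17, adjusted p = 0.117). TDO2 had 25.5, 24.3 and 22.7 CPM after siARD1 and 18.3, 23.2 and 19.4 CPM in controls (0.25, adjusted p = 0.0718). Both overlapped between groups and sat near the threshold: HGD passed as lower without siARD1 replicate 2 (-0.25, adjusted p = 0.0279), and TDO2 as higher without control 2 (0.35, adjusted p = 0.0253). FAH had 40.1, 40.5 and 43.8 CPM after siARD1 and 38.7, 41.9 and 41.4 CPM in controls (0.03, adjusted p = 0.790). BHMT had 28 to 39 counts after siARD1 and 20 to 42 in controls (-0.08, adjusted p = 0.850). The groups of FAH and of BHMT overlapped.

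The remaining tested genes of that line were expressed weakly. ADH6 had 36, 57 and 87 counts after siARD1 and 95, 69 and 66 in controls (log2 fold change -0.50, SE 0.21, adjusted p = 0.0848). Without siARD1 replicate 3 it passed as lower (-0.72, adjusted p = 0.0325). SLC27A5 had 80, 89 and 115 counts after siARD1 and 81, 54 and 87 in controls (0.24, adjusted p = 0.335). BAAT (0.10, adjusted p = 0.914), ABCB11 (-0.11, adjusted p = 0.846) and FBP1 (-0.20, adjusted p = 0.776) had 5 to 36 counts per siARD1 replicate and 1 to 35 per control. All 5 of these genes overlapped between groups. The 14 genes under the filter, AGXT, TAT, HPD, GNMT, MAT1A, CDO1, GLS2, ARG1, PCK1, ALDH8A1, HAO1, CYP8B1, SLC10A1 and UGT2B4, had 0 to 11 counts in any library of that line. HAO1, which makes glyoxylate from glycolate, had 2 counts in total after siARD1 and 0 in controls, and a count of 0 allows 0.130 to 0.174 CPM per control library.

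Whether the response differed between the lines was tested as the siARD1 effect in Huh-7 minus that in the libraries labelled Hep-3B. The effect differed for 6 of 24 tested genes, against 31.4% of the 17122 genes tested. Of the 24, AGXT, TAT, HPD, MAT1A, CDO1, ARG1, PCK1, ALDH8A1 and UGT2B4 were under the filter on low counts in the libraries labelled Hep-3B. A difference was hard to detect in them, so the share is not to be read as below that of all genes. All 6 calls were among the 15 genes tested in both lines. More negative in Huh-7 were BHMT (difference of log2 fold changes -1.24, SE 0.30, edgeR adjusted p = 0.00177), SLC27A5 (-1.06, SE 0.32, adjusted p = 0.0114) and TDO2 (-0.88, SE 0.20, adjusted p = 0.00138). BHMT had log2 fold changes of -1.31 in Huh-7 and -0.08 in the libraries labelled Hep-3B. SLC27A5 and TDO2 had log2 fold changes of -0.80 and -0.61 in Huh-7 and of 0.24 and 0.25 in the others. These 3 calls held with each library left out in turn.

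More positive in Huh-7 were CYP27A1 (0.45, SE 0.09, adjusted p = 3.45e-04), CYP3A5 (0.34, SE 0.12, adjusted p = 0.0318) and HGD (0.25, SE 0.10, adjusted p = 0.0459). CYP27A1 kept its call with each library left out in turn. The CYP3A5 difference was lost without Huh-7 control 1 (adjusted p = 0.0881), Huh-7 siARD1 replicate 2 (0.154), or, among libraries labelled Hep-3B, control 2 (0.0503), siARD1 replicate 1 (0.0582) or siARD1 replicate 3 (0.0824). HGD lost its call without any 1 library other than control 1 or siARD1 replicate 2 labelled Hep-3B, with adjusted p of 0.0528 to 0.210 and a difference of 0.15 at the lowest.

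ASL and PYGL fell in both lines, which makes 2 of the 15 genes tested in both. The share of all genes called in the same direction in both lines was not computed, so this count has no background. ASL differed by -0.03 between the lines (SE 0.13, adjusted p = 0.879) and PYGL by 0.07 (SE 0.09, adjusted p = 0.596). ADH6 had log2 fold changes of -0.49 in Huh-7 and -0.50 in the others, with a difference of -0.02 (SE 0.20, adjusted p = 0.962). AGXT, ARG1 and PCK1 were too near 0 in the libraries labelled Hep-3B to be compared: their differences of -3.40, -2.17 and -1.80 had SEs of 1.38, 1.96 and 1.19 and adjusted p of 0.0612, 0.454 and 0.261. Leaving out 1 library brought each past the threshold, AGXT without Huh-7 siARD1 replicate 3 (0.0445), and control 2 (0.0320) or siARD1 replicate 1 (0.0351) labelled Hep-3B, ARG1 without Huh-7 siARD1 replicate 3 (0.00936) and PCK1 without control 3 labelled Hep-3B (0.0174). TAT also passed without control 2 labelled Hep-3B (0.0333), against 0.251 with all libraries.

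Other genes of the same pathways, 139 in 6 lists, were counted in the same way, and their shares are to be read against all genes tested. In Huh-7, 15.4% of the 123 tested rose and 31.7% fell, against 21.2% and 18.9% of all genes. By list, the share that fell was 39.5% in amino acid breakdown and 39.3% in bile acid synthesis and transport, and stood near the share of all genes in glucose output (21.4%), alcohol and aldehyde oxidation (20%) and drug metabolism (17.4%). In amino acid breakdown, 17 of 43 tested genes fell and 5 rose (median log2 fold change -0.18). AASS, the first enzyme of lysine breakdown, fell by 0.84 (SE 0.06, edgeR adjusted p = 1.77e-09), and ALDH4A1, of proline breakdown, by 0.49 (SE 0.05, adjusted p = 3.98e-07). KYNU, which cleaves kynurenine, rose by 1.62 (SE 0.14, adjusted p = 6.52e-09). Of 5 further genes around the urea cycle, SLC25A13, the aspartate-glutamate carrier, rose (0.34), and CA5A, which supplies mitochondrial bicarbonate (-0.66), and NAGS, which makes the activator of CPS1 (-0.29), fell. NAGS missed the threshold with control 1 left out (adjusted p = 0.113), or control 2 (0.0509), siARD1 replicate 1 (0.0927) or siARD1 replicate 2 (0.121).

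In glucose output and glycogen 3 of 14 rose and 3 fell in Huh-7 (median -0.04). PYGB, brain glycogen phosphorylase (0.58), and GYG1, which primes glycogen (0.62), were higher, and SLC37A4, the carrier that feeds glucose-6-phosphate to the phosphatase (-0.36), was lower. In alcohol and aldehyde oxidation 3 of 10 rose and 2 fell (median -0.08), with ALDH1A1, of retinal oxidation, higher (0.62) and ALDH7A1 (-0.37) and ALDH9A1 (-0.24) lower. In bile acid synthesis and transport 5 of 28 rose and 11 fell (median 0.0060). The 3 genes with the lowest p all rose: NR1H4, the bile acid receptor gene (0.47), its target NR0B2 (0.65), and the canalicular pump gene ABCC2 (0.30). In drug and steroid metabolism 2 of 23 rose and 4 fell (median -0.21), among them CYP1A1 (0.51), SULT1A1, a phenol sulfotransferase (-1.39), and UGT2B15 (1.55). UGT2B15 lost its call without siARD1 replicate 2 (adjusted p = 0.0519), and UGT2B15 and SULT1A1 have close copies that may share reads.

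In the libraries labelled Hep-3B, 11.5% of the 104 tested genes of these lists rose and 26% fell, against 16.8% and 15.3% of all genes. In amino acid breakdown 5 of 40 fell and 6 rose (median -0.09), shares of 12.5% and 15% that are near or below those of all genes. GCSH, a glycine cleavage subunit, rose (1.04), and BHMT2, a methyltransferase related to BHMT (-0.53), and IVD, of leucine breakdown (-0.48), fell. ARG2, the mitochondrial arginase, rose (0.92), as 1 of 4 genes around the urea cycle with 0 lower (median 0.17). In glucose output and glycogen 1 of 12 rose and 3 fell (median 0.05), the 3 being GBE1, the glycogen branching enzyme (-0.79), PC, pyruvate carboxylase (-0.46), and PGM1 (-0.32). In alcohol and aldehyde oxidation 6 of 10 fell and 0 rose (median -0.22), among them ALDH3A2 (-0.45), ALDH1A1 (-0.25) and ADH5 (-0.20). ADH5 missed the threshold with control 2 left out (adjusted p = 0.0555), or control 3 (0.0622) or siARD1 replicate 1 (0.0603). In bile acid synthesis and transport 7 of 19 fell and 3 rose (median -0.07), with HSD3B7, an early enzyme of synthesis (-0.53), HSD17B4, of side-chain shortening (-0.30), and the efflux pump gene ABCC3 (-0.36) lower. In drug and steroid metabolism 6 of 19 fell and 1 rose (median -0.22), among them FMO5 (-0.52), UGT1A1 (-0.41) and UGT1A6 (-0.37). The UGT1A genes share their last exons, so their counts are not independent.

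**Figure D5:**
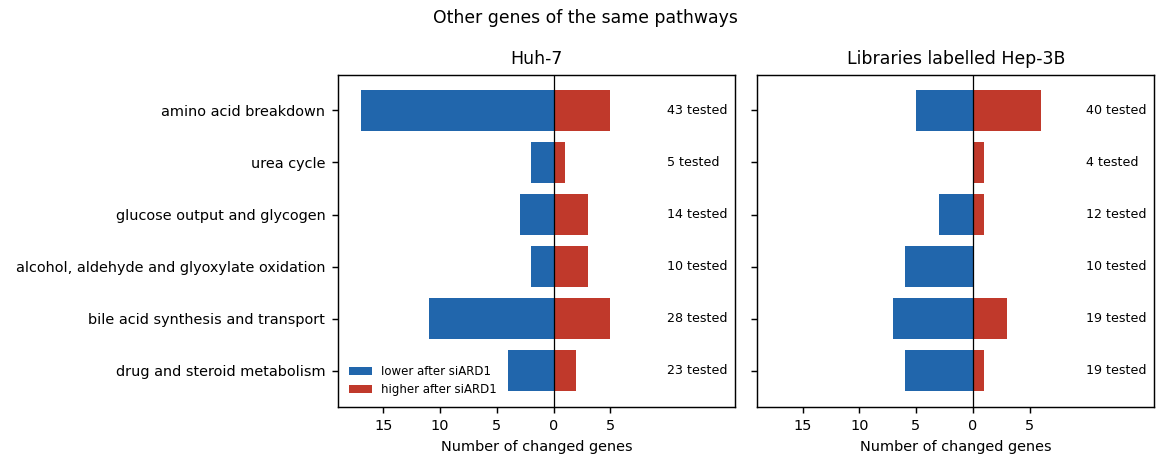
Number of changed genes in the 6 lists of other pathway genes, lower to the left of 0 and higher to the right, with Huh-7 left and the libraries labelled Hep-3B right, and the number tested beside each bar. Amino acid breakdown in Huh-7 has 17 lower and 5 higher genes of 43, and alcohol and aldehyde oxidation in the libraries labelled Hep-3B has 6 lower and 0 higher of 10.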

How the data were processed

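Raw gene counts of 12 libraries were used as deposited by the authors, 1 table per line, with 0 columns of values left unmapped. Per the labels' protocols, Trizol-extracted RNA was cleared of ribosomal RNA and made into strand-specific libraries. Per the submitters' processing notes, the tools were cutadapt 4.6 and STAR 2.7.11b and the build GRCh38. For the counter, its annotation and its strand setting, nothing is given in the sources used here, so reads of overlapping genes on opposite strands may be mixed.

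Each line was fitted alone in R 4.3.3 with edgeR 4.0.16 (filterByExpr with a minimum count of 10 and total of 15, TMM factors, robust quasi-likelihood F-test, Benjamini-Hochberg adjustment at 0.05). The tables list 25714 genes (Huh-7) and 25720 (labelled Hep-3B). The 22730 genes in both entered 1 fit of 4 groups, which gave the difference in response and the contrast of control groups. The SE was taken as the size of the log2 fold change divided by the root of F, an approximation that is poor at few counts. Positions and exon lengths came from GENCODE v29, promoters from RefSeq. The 28 genes of the residual rate had at least 100 CPM in Huh-7 and were at least 1000-fold lower in the other line. Counting floors (3 counts) cover counting error only.

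The 34 genes, the pathway and marker lists and the tests were chosen with earlier results of these data known. Values per library are given for genes called in at least 1 line or with at least 5 CPM in a control group, and up to 3 genes per pathway list and line are named by lowest adjusted p. As alternatives, scaling was by upper-quartile or RLE factors, the test by limma-voom (limma 3.58.1) or DESeq2 1.42.0, and the filter absent or set to 1 CPM in 3 libraries. Further ones tested against a fold of 1.5, lowered the false discovery rate to 0.01, joined both lines in 1 fit, took replicate number as a block, or left out each library. The fits were tested on simulated data with the same spread setting for every gene and changes planted only above a minimum mean count. That test does not cover genes below that count or of wider spread. No 2 libraries of a group agreed within counting noise (chi-square per degree of freedom 2.33 to 8.90). Figures were drawn with matplotlib 3.10.9.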

Additional observations from a re-analysis of the deposited data

Results flagged for a closer look

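For 6 genes the response to siARD1 differed between the lines by the test of the difference itself (log2 fold change in Huh-7 minus that in the libraries labelled Hep-3B). The 3 genes with a more negative response in Huh-7 were BHMT (-1.24), SLC27A5 (-1.06) and TDO2 (-0.88). The 3 with a more positive one were CYP27A1 (0.45), CYP3A5 (0.34) and HGD (0.25), of which HGD missed the threshold with upper-quartile scaling (edgeR adjusted p = 0.0547) and with the filter of 1 CPM in 3 libraries (0.0519). CYP27A1 and CYP3A5 fell in the libraries labelled Hep-3B, whose controls held more of both than Huh-7 controls did. TDO2 and SLC27A5 were also higher in controls labelled Hep-3B, but these genes fell in Huh-7 (-0.61 and -0.80). The 2 lines also differ in hepatocyte marker level, and its part in these differences was not tested.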

How the results depend on the processing

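Of 12 genes lower and 2 higher in Huh-7, RLE scaling, limma-voom and the filter of 1 CPM in 3 libraries each gave 12 and 2. The 2 higher became 1 with upper-quartile scaling or DESeq2 and 0 with a false discovery rate of 0.01, a test against a fold of 1.5 or both lines in 1 fit. The 12 lower became 4 with that fold (AGXT, BHMT, PCK1 and G6PC1), and 10 in the joint fit, where G6PC1 and OTC could not enter. The rate of 0.01 left 8 lower, without ARG1, OTC, PYGL and SLC27A5. ARG1 missed the threshold with no filter (adjusted p = 0.0693), HPD with DESeq2 (0.0725), upper-quartile scaling (0.0520) and the joint fit (0.0726), BAAT with the joint fit (0.0553) and SLC27A5 with DESeq2 (0.0566). With each Huh-7 library left out the number higher was 0 to 2 and the number lower 8 to 12. In the libraries labelled Hep-3B, the 1 higher gene (CPS1) became 0 with upper-quartile scaling, DESeq2, no filter, the fold of 1.5 or the rate of 0.01, and the 4 lower became 0 with that fold and 3 with that rate, without ASL. Leaving out libraries gave 0 to 1 higher and 3 to 5 lower, and for the difference between lines 4 to 7 genes. The joint fit also called ADH6 lower there (adjusted p = 0.0251). The CPS1 difference between control groups was lost with upper-quartile scaling (0.0980).

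Correlations of same-numbered libraries were -0.087 to 0.077 in Huh-7 and 0.031 to 0.085 in those labelled Hep-3B. Those of differently numbered libraries were -0.14 to 0.15 in Huh-7 and -0.073 to -0.0080 in those labelled Hep-3B. In the latter every same-numbered value was above every other, so a weak pairing by replicate number cannot be told from none. A block on replicate number gave 2 higher and 11 lower in Huh-7 (ARG1 adjusted p = 0.103). In the other line it gave 2 higher and 5 lower (TDO2 added as higher at 0.0455 and HGD as lower at 0.0484). Between the lines it gave 6 differences.

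Sign changes touched uncalled values only. CYP27A1 in Huh-7 was -0.052 with upper-quartile scaling and -0.0059 in the joint fit, FAH labelled Hep-3B -0.0030 with upper-quartile scaling, and the ADH6 difference 0.0063 with RLE scaling. Over left-out libraries in Huh-7, log2 fold changes ran from -0.062 to 0.22 for CPS1, -0.053 to 0.077 for CYP27A1, -0.13 to 0.040 for FAH, -0.0038 to 0.14 for ASS1, -0.0079 to 0.38 for TAT and -0.43 to 0.61 for ADH4. In the libraries labelled Hep-3B they ran from -0.36 to 0.22 for ABCB11, -0.34 to 0.57 for BAAT, -0.24 to 0.15 for BHMT, -0.0100 to 0.054 for FAH and -0.41 to 0.15 for FBP1. Differences between lines ran from -0.28 to 0.27 for FBP1, -0.14 to 0.21 for ADH6, -0.14 to 0.11 for ASL, -0.11 to 0.036 for ASS1, -0.66 to 1.03 for CDO1 and -0.43 to 0.075 for MAT1A. The cause of these changes was not tested. PCK1, G6PC1, OTC, HPD, BAAT and SLC27A5 in Huh-7 rest on 13 to 110 counts per library, which limits their precision.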
